A study of Mus musculus with 4 samples.

Results

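The genes described here encode the proteins of the mitochondrial ribosome. Their members were chosen by symbol alone, as every gene of the deposited table named Mrpl or Mrps followed by a number and at most 1 letter. This rule found 78 of the 50559 genes in the table, 49 named for the large subunit (Mrpl) and 29 for the small subunit (Mrps). The rule used no measured value. E14 mouse embryonic stem cells (ESCs), grown on gelatin with leukemia inhibitory factor, were sequenced in 4 RNA libraries, 1 per group. Every group carried a hairpin RNA together with an expression vector. In the control library (shScram+EV) the hairpin was scrambled and the vector empty, and in the knockdown library (shYthdf2+EV) the hairpin targeted Ythdf2 while the vector stayed empty. The wild-type library (shYthdf2+DF2WT) and the mutant library (shYthdf2+DF2Mut) had the same Ythdf2 hairpin, with a vector for intact YTHDF2 or for YTHDF2 whose m6A-binding site was mutated. The labels state neither whether a line was 1 clone nor which promoter drove the constructs. Since each group was 1 library, differences could not be set against a spread between replicates and no p-values were calculated.

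The mitochondrial ribosome translates the few mRNAs of the mitochondrial genome, which encode core subunits of the respiratory chain and of ATP synthase. Its ribosomal RNAs are transcribed inside the organelle, whereas all of its proteins are encoded by nuclear genes, translated in the cytosol and imported. Some of these proteins have relatives in bacterial ribosomes, and others are particular to mitochondria. YTHDF2 is a cytoplasmic protein that binds mRNAs carrying N6-methyladenosine (m6A) and promotes their decay.

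As a check of the labels, Ythdf2, the targeted gene (minus strand of mm39 chromosome 4, 131912227 to 131939567), was counted at 2806 reads in the control, 662 in the knockdown, 7661 in the wild-type and 6925 in the mutant library. It was therefore lower in the knockdown library, with a log2 ratio of -2.27 (95% interval -2.45 to -2.10), and above the control in both libraries that carried a construct. Libraries held 31533129 to 35742335 counted reads, of which 6.14% to 8.44% came from mitochondrially encoded genes. The 10 ESC markers summed to between 5360 and 5772 CPM (counts scaled to library size, per 1000000 reads), and 6 fibroblast markers summed to at most 16.49 CPM, with Dcn at 0 in every library. The summed level of 6 markers of 2-cell-like cells was 90.86 CPM in the control, 322.7 in the knockdown, 104.3 in the wild-type and 280.8 in the mutant library, and all 6 were higher on knockdown. Markers of other lineages also differed. The 6 trophoblast markers summed to 120.9, 76.61, 115.5 and 75.02 CPM in the same order of libraries, with 5 of 6 lower on knockdown. The interval lay below 0 for 3 of them (Krt8, Krt18 and Tfap2c). Cdx2, Elf5 and Gata3 had few reads, with intervals across 0. The 6 primitive endoderm markers summed to 13.1, 16.52, 10.18 and 15.78 CPM. Of the 5 that passed the filter, 4 were higher on knockdown, 1 of them (Gata6) with an interval above 0, and Gata4 was lower. The part of these markers in the member values was not tested. In bulk RNA, a change in the number of cells of a type and a change in the RNA per cell cannot be told apart.

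All 78 members were expressed and passed the filter on low counts (a mean of at least 10 reads over the 4 libraries). The mean counts of the members ran from 329.2 to 4192 reads, with a median of 1164, and they lay on 17 chromosomes. Per length, their median level was 23.4 FPKM (fragments scaled to gene length and library size), against 3.37 over all 18586 genes that passed the filter. Mrpl42, a protein particular to mitochondria, had the highest mean level, with FPKM of 117, 117, 130 and 114 in the control, knockdown, wild-type and mutant libraries. Every list of 4 values below keeps this order. Mrps5, a small-subunit protein with a bacterial relative, followed with FPKM of 85.2, 74.2, 83.8 and 74.0, and Mrpl12, a stalk protein, had 59.1, 70.0, 63.5 and 56.4. These 3 genes differed between libraries by far less than they differed from the weakly expressed members. The lowest mean levels were those of Mrpl14 (1.84 FPKM), Mrpl48 (3.81 FPKM) and Mrpl57 (5.21 FPKM). The summed exon length of Mrpl14 was 7525 bases and that of Mrpl48 was 5203 bases, and FPKM divides by that length over every annotated transcript.

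The promoters printed next are shown because they belong to members that moved differently across the libraries while sharing a short motif, and they are referred to again with the values. They come from the RefSeq promoter table for build GRCm38.p6, a different build from the mm39 of the counts, and each runs over the 250 bases before the annotated start of the gene. Capitals mark a match to the ETS motif (ACTTCCGG), bound by GABPA and its relatives, or to the NRF1 motif (GCGCANGCG), searched on both strands. The first 3 carry the ETS motif and the last 2 the NRF1 motif.
Mrpl3 (chr9:105053018-105053267, plus strand): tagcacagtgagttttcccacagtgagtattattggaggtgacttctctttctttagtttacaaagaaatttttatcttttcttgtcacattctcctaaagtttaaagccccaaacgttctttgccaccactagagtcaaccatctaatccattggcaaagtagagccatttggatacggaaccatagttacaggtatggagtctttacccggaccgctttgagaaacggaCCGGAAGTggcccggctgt
Mrps18c (chr5:100798509-100798758, plus strand): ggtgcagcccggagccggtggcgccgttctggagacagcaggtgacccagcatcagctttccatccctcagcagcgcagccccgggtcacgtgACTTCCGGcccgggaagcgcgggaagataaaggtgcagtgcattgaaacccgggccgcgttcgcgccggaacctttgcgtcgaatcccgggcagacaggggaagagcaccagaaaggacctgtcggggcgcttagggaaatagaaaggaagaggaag
Mrps22 (chr9:98601680-98601929, minus strand): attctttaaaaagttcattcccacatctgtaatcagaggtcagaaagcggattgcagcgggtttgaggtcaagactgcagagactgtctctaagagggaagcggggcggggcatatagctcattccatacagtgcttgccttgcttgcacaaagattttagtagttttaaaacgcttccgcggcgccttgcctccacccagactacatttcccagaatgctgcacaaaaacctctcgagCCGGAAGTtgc
Mrpl12 (chr11:120484387-120484636, plus strand): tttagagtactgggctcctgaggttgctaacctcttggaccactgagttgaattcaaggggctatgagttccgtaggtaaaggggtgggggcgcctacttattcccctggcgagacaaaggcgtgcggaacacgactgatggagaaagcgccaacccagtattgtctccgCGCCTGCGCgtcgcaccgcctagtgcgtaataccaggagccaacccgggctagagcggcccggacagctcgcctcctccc
Mrpl45 (chr11:97315466-97315715, plus strand): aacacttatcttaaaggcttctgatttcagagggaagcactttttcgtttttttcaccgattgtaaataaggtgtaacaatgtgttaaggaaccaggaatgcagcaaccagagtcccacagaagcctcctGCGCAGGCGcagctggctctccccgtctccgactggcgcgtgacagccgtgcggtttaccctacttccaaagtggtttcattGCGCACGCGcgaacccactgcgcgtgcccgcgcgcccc

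A promoter was found for 69 of the 78 members, and 4 motifs were searched on both strands over 300 bases, 250 before and 50 after the start. The NRF1 motif, that of a transcription factor known for nuclear genes of mitochondrial proteins, was in 16 members (23.2%), against 7.03% of all 27025 promoters and 12.9% of the 13124 that belong to genes passing the filter. The ETS motif was in 12 members (17.4%), against 4.31% and 7.70%. The YY1 motif (AANATGGCG), whose letters can also hold a start codon, was in 11 members (15.9%), against 2.76% and 4.95%. The THAP11 motif (ACTACAATT) was in 0 members, against 0.448% and 0.701%. At least 1 of the 4 was found in 36 members (52.2%), against 13.0% and 23.3%. A match describes letters and not binding. Another gene on the opposite strand began within 1 kb of the start of 33 members (42.3%), against 15.4% of the genes that passed the filter. Mrps11 and Mrpl46 are such a pair among the members themselves, with starts 42 bases apart. Members were also shorter than most genes. Their median exon length was 1580 bases in 5 merged exons, against 3393 bases in 8, while their median GC content (49.8% against 49.9%) lay close to that of the others. The density of GGAC, the core letters of the usual m6A consensus, was 3.43 per kilobase of transcript in the median member and 4.04 in the median gene.

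As a whole, the members took up more of the knockdown library than of the control. Their share of all counted reads was 0.3045% in the control, 0.3493% in the knockdown, 0.3348% in the wild-type and 0.3107% in the mutant library, with Wilson 95% intervals of 0.3026% to 0.3064%, 0.3474% to 0.3512%, 0.3329% to 0.3368% and 0.3088% to 0.3127%. All intervals in this text cover counting error only, which leaves out the spread between cultures, and those of the shares take each read as independent although both mates of a pair are counted, so they are too narrow. Without the mitochondrially encoded genes the shares were 0.3326%, 0.3746%, 0.3575% and 0.331%, so that the intervals of the control and the mutant library overlapped on that scale and the knockdown library stayed highest. The level was highest in the knockdown library for 41 of the 78 members, in the wild-type library for 24, in the control for 10 and in the mutant library for 3 (Mrpl3, Mrpl15 and Mrpl19). It was lowest in the mutant library for 41 members, in the control for 26, in the wild-type library for 8 and in the knockdown library for 3 (Mrpl4, Mrpl45 and Mrps22). Of all genes that passed the filter, 22.3% were highest in the knockdown library and 25.9% were lowest in the mutant library. For the other counts the share over all genes was not calculated, so they describe the members only.

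**Figure D1:**
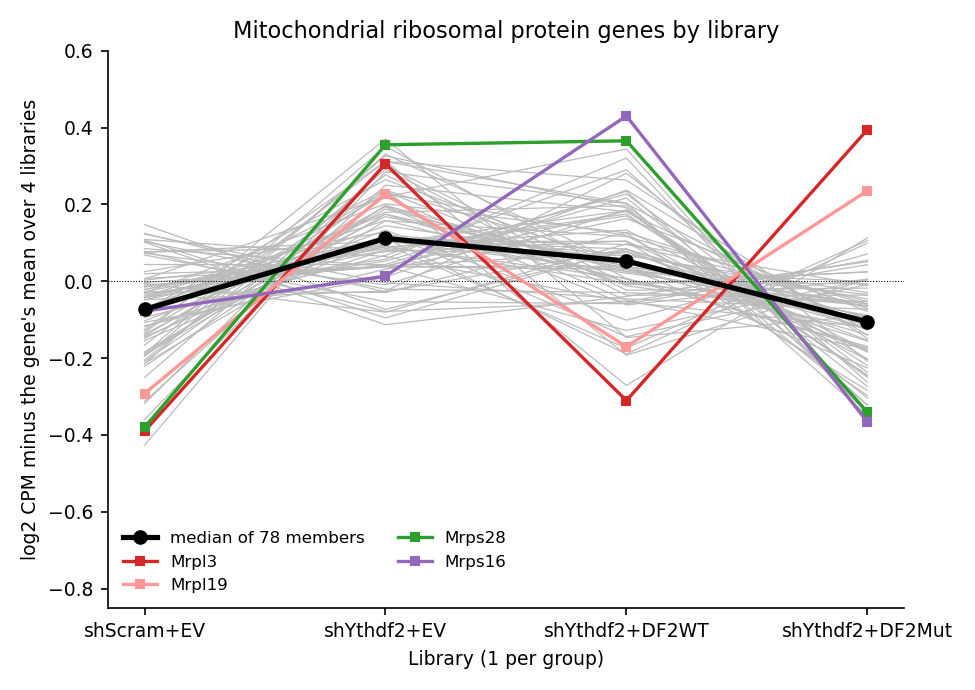
Level of each of the 78 members in the 4 libraries, as log2 CPM minus the mean of that gene over the libraries, with 1 grey line per gene and the median of the members in black. The median is highest in the knockdown and lowest in the mutant library, while Mrpl3 and Mrpl19 are high in both of these, and Mrps28 is high in the knockdown and wild-type libraries.

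The first comparison asked how the members differed after knockdown of Ythdf2. The log2 ratio of knockdown to control was above 0 for 65 of 78 members, whereas 49.8% of the 18586 genes were above 0. The median ratio of the members was 0.19 (range -0.22 to 0.74), beside a median of 0.00 over all genes. A level at least 25% higher was measured for 26 members (33.3%, against 24.1% of all genes). A level at least 20% lower, the same step downward on the log scale, was measured for 0 members (against 23.4%). A 2-fold difference in either direction was measured for 0 members (against 12.8% of all genes). Many genes behind these percentages have few reads. Among the 9638 genes with a mean count at or above that of the lowest member, 15% were at least 25% higher, 13.9% were at least 20% lower, and the quartiles of their ratios were -0.19 and 0.20. The counting interval lay above 0 for 40 members and below 0 for 5. It lay above 0 for 4303 and below 0 for 4242 of all 18586 genes. Among the 9638 genes of like or higher mean count these numbers were 2989 and 3002. The differences were thus small for each gene and on the higher side for most members.

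Members named for either subunit shared this direction. Of those named Mrpl, 42 of 49 were higher, with a median of 0.19, and of those named Mrps 23 of 29, with a median of 0.14. Members with a bacterial relative (41 of 48 higher, median 0.14) and members particular to mitochondria (23 of 29 higher, median 0.20) did so as well. The 33 members with an opposite start within 1 kb had a median of 0.26 and the other 45 had 0.14. The 16 members with the NRF1 motif had a median of 0.16, the 12 with the ETS motif 0.26 and the 11 with the YY1 motif 0.11. Members whose promoter lacked the motif had 0.20, 0.19 and 0.20.

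**Figure D2:**
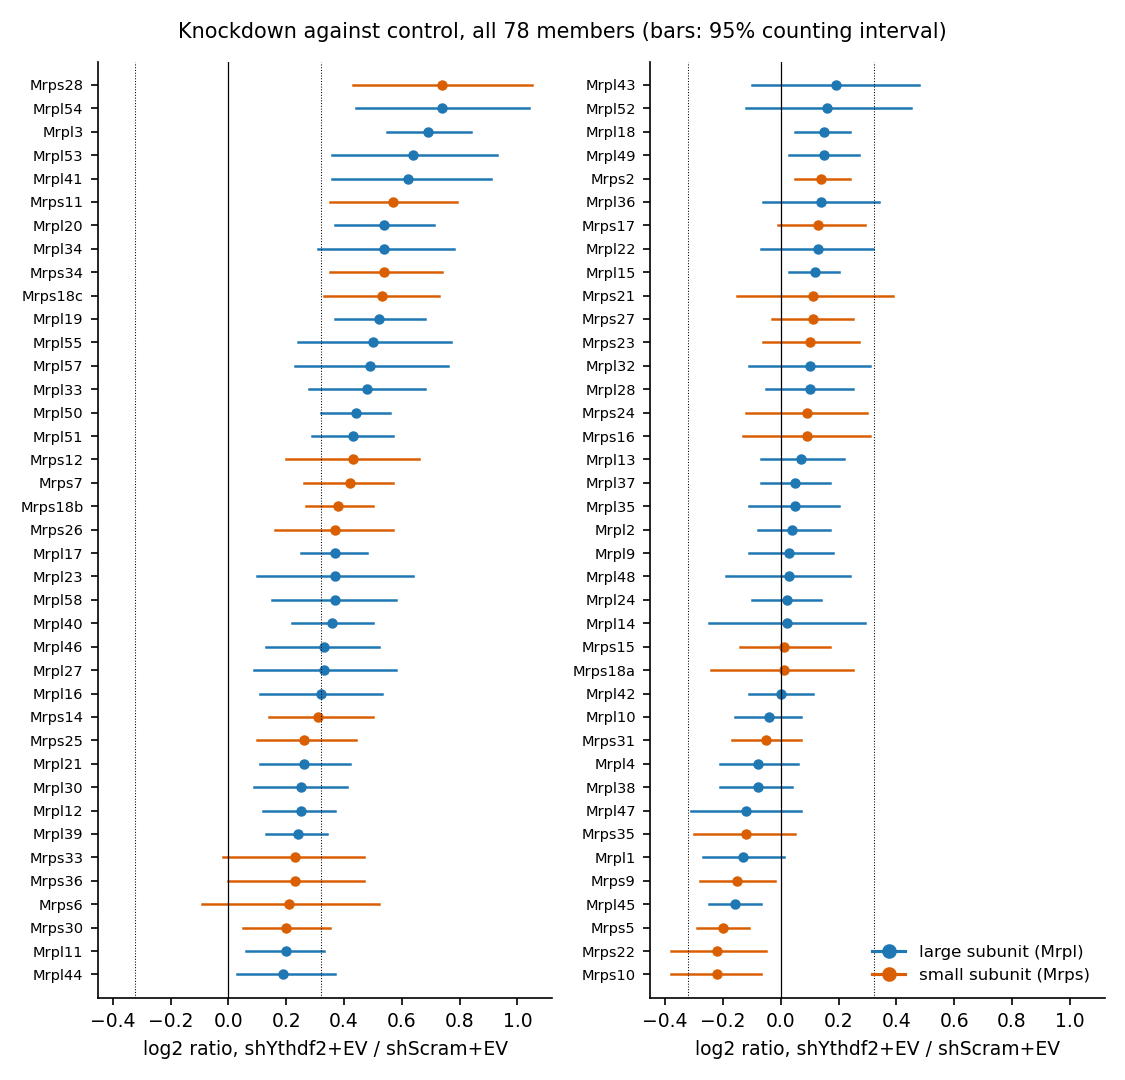
Log2 ratio of knockdown to control for the 78 members, sorted, with points for the ratio and bars for the 95% counting interval, in blue for the large and orange for the small subunit by name. Dotted lines mark levels 25% higher and 20% lower. Of the members, 65 lie above 0, and the lowest point is at -0.22.

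The 4 members with the highest ratio on knockdown were Mrps28, Mrpl54, Mrpl3 and Mrpl53. Mrps28 (mm39 chromosome 3, 8867206 to 8988917, minus strand), a small-subunit protein, had 264, 501, 460 and 273 reads, and its knockdown ratio was 0.74 (95% interval 0.43 to 1.05). It was high in the knockdown and wild-type libraries and low in the control and mutant libraries. Mrpl54 (mm39 chromosome 10, 81100556 to 81102760, minus strand), a large-subunit protein particular to mitochondria, had 284, 539, 478 and 347 reads, a ratio of 0.74 (0.44 to 1.04). Mrpl3 (mm39 chromosome 9, 104930394 to 104954665, plus strand), relative of the bacterial protein that reaches toward the peptidyl transferase centre, had 1229, 2263, 1354 and 2130 reads, a ratio of 0.69 (0.55 to 0.84). Its order of libraries was another one, high in the knockdown and mutant libraries and low where the hairpin was scrambled or wild-type YTHDF2 was added. Mrpl53, a large-subunit protein particular to mitochondria, had 325, 577, 500 and 385 reads, a ratio of 0.64 (0.36 to 0.93).

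At the other end were Mrps10, Mrps22, Mrps5 and Mrpl45, none of them 20% lower. Mrps10, a small-subunit protein with a bacterial relative, had 1427, 1393, 1419 and 1168 reads, a ratio of -0.22 (-0.38 to -0.07). Mrps22, particular to mitochondria, had 1187, 1163, 1123 and 1156 reads, a ratio of -0.22 (-0.38 to -0.05). The read counts of Mrps22 were nearly flat, as were those of Mrps10 outside the mutant library, while the knockdown library was the deepest of the 4. Mrps5 had 3863, 3827, 3955 and 3375 reads, a ratio of -0.20 (-0.29 to -0.11), and Mrpl45 had 4017, 4091, 3828 and 3964 reads, a ratio of -0.16 (-0.25 to -0.07). Both are among the members with the most reads. Over the 78 members, the knockdown ratio fell with the mean count (Spearman's rho -0.38) where no such relation was measured over 16988 genes (-0.01), and the points share the same 2 libraries.

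By role, the knockdown ratios varied within each part of the ribosome. Of the stalk proteins, which contact translation factors, Mrpl12 had a ratio of 0.25, Mrpl11 0.20 and Mrpl10 -0.04. Around the exit tunnel, through which the nascent chain leaves, Mrpl23 had 0.37, Mrpl22 0.13, Mrpl24 0.02 and Mrpl45, the protein that anchors the ribosome to the inner membrane, -0.16. In the central protuberance, at the top of the large subunit, Mrpl40 had 0.36, Mrpl46 0.33, Mrpl18 0.15, Mrpl48 0.03 and Mrpl38 -0.08. Each of these groups held values from at or below 0.03 to at least 0.25. The 3 paralogs of bacterial protein S18 also spread, with a ratio of 0.53 for Mrps18c, 0.38 for Mrps18b and 0.01 for Mrps18a. The ratio was 0.43 for Mrps12, which lies at the decoding centre, and 0.20 for Mrps30, which sits in the large subunit despite its name. It was 0.37 for Mrpl58, a peptidyl-tRNA hydrolase built into the large subunit. Mrps36, now known as a part of the 2-oxoglutarate dehydrogenase complex rather than of the ribosome, had 524, 700, 609 and 438 reads and a ratio of 0.23, with an interval from 0.00 to 0.47.

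The second comparison asked how the members differed once wild-type YTHDF2 was added to the knockdown. The log2 ratio of the wild-type to the knockdown library was above 0 for 29 of 78 members (against 50.4% of all genes) and its median was -0.06 (range -0.61 to 0.42), beside 0.00 over all genes. A level at least 25% higher was measured for 1 member, Mrps16 (against 22.3%), and one at least 20% lower for 6 (7.69%, against 21.0%), with 0 at 2-fold (against 10.7%). Among the genes of like or higher mean count, 11.8% were at least 25% higher and 11.6% at least 20% lower. After correction for exon length and GC content, 15 members in place of 7 were past either limit. Summed over all members, the ratio was -0.067 (-0.084 to -0.051), while the summed knockdown ratio was 0.154 (0.137 to 0.171). These comparisons share the knockdown library, so a high count there enters both with opposite sign. In the wild-type library the summed level of the members was 3315 CPM, between 3121 CPM in the control and 3473 CPM in the knockdown library.

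The 4 lowest members in this comparison belonged to the large subunit. Mrpl3 had the lowest ratio, -0.61 (-0.75 to -0.48). Mrpl55 had 392, 631, 406 and 406 reads, a ratio of -0.51 (-0.77 to -0.25), and stood high in the knockdown library alone. Mrpl16, relative of a bacterial protein near the tRNA-binding sites, had 639, 907, 584 and 735 reads, a ratio of -0.51 (-0.73 to -0.29). Mrpl50, particular to mitochondria, had 1872, 2882, 1860 and 2062 reads, a ratio of -0.50 (-0.63 to -0.38). In each of these 4 genes the wild-type library lay nearer to the control than to the knockdown library. They were picked for a low ratio here, which favours that order, so it does not describe the members as a whole. The highest members were Mrps16, Mrpl14, Mrps24 and Mrps21. Mrps16, a small-subunit protein with a bacterial relative, had 628, 762, 932 and 519 reads, a ratio of 0.42 (0.22 to 0.62), and was highest in the wild-type library. Mrpl14 had 421, 484, 550 and 379 reads, a ratio of 0.31 (0.06 to 0.57). Mrps24 had a ratio of 0.26 (0.06 to 0.46) and Mrps21 a ratio of 0.23 (-0.03 to 0.48), both also highest with wild-type YTHDF2.

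The third comparison set the m6A-binding mutant against the knockdown. The log2 ratio of the mutant to the knockdown library was above 0 for 7 of 78 members (against 51.2% of all genes), and its median was -0.23 (range -0.70 to 0.17), beside 0.01 over all genes. A level at least 20% lower was measured for 24 members (30.8%, against 17.4% of all genes and 6.92% of the 9638 with a like or higher mean count). Levels 25% or more higher were measured for 0 members (against 13.5% of all genes and 2.5% of those with a like or higher mean count). A 2-fold difference was measured for 0 (against 6.03% of all genes). The counting interval lay below 0 for 51 members and above 0 for 1, Mrpl45. It lay below 0 for 2397 and above 0 for 2739 of all 18586 genes. Among the 9638 genes of like or higher mean count these numbers were 1779 and 2266. Of the members named Mrps, 28 of 29 were lower, with a median of -0.26, and of those named Mrpl 43 of 49, with a median of -0.22.

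Shorter genes were lower in this comparison, among the members and among other genes, so exon length moved with the result, as did the mean count among the members. Across the 78 members the ratio rose with log2 exon length (Spearman's rho 0.51), as it did over the 16988 genes with a GC value (0.28), and all points share the same pair of libraries. The mean count moved with it too, with Spearman's rho of 0.57 over the members and 0.06 over the 16988 genes. For members under 1000 bases (21 genes) the median ratio was -0.36, beside -0.39 in genes of that length with a like or higher mean count. From 1000 to under 2000 bases (30 members) it was -0.22 beside -0.11, and from 2000 bases (27 members) it was -0.15 beside 0.05. After a loess correction for exon length and GC content the median of the members was -0.10, with 16 of 78 above 0, beside 0.02 over all genes, and the number of members at least 25% higher or 20% lower went from 24 to 7. The median thus kept its sign under the correction and became smaller. The knockdown ratios moved less with length, at medians of 0.21, 0.19 and 0.15 in the same 3 bins beside 0.24, 0.06 and -0.02, and the corrected median was 0.14 with 60 members above 0. In both comparisons the median of members under 1000 bases was near that of other genes of their length. The medians of longer members were farther from those of other genes than that. Both comparisons use the knockdown library, with opposite sign, so the likeness between them is not a repeat.

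**Figure D3:**
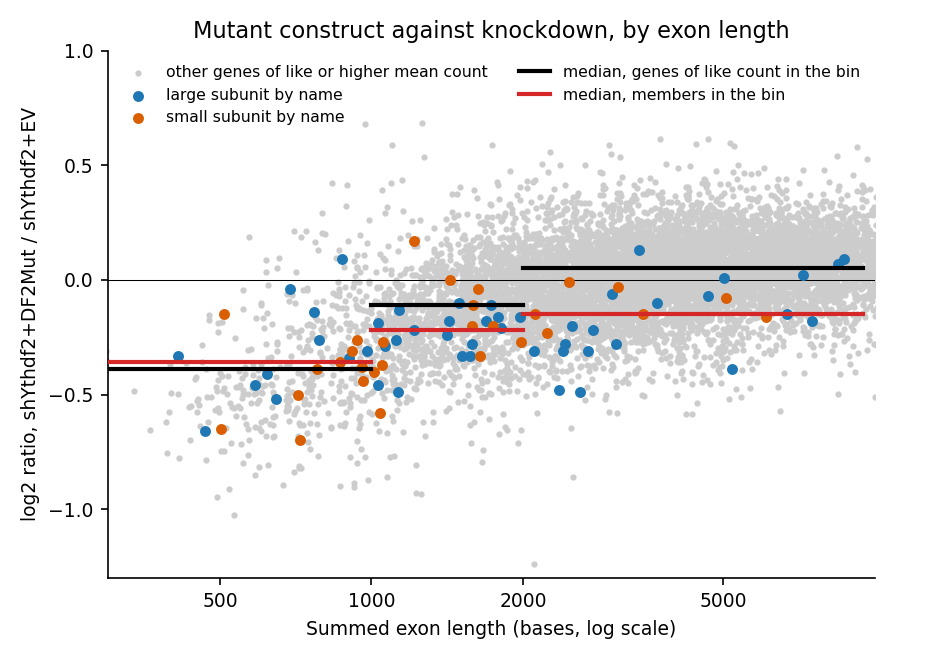
Log2 ratio of the mutant to the knockdown library against summed exon length on a log axis, for the members (blue, large subunit; orange, small subunit) and, in grey, for other genes of like or higher mean count within the axes. Horizontal lines give medians in 3 length bins, at -0.36, -0.22 and -0.15 for the members (red) and at -0.39, -0.11 and 0.05 for all genes of like or higher mean count (black).

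The lowest members with the mutant construct were Mrps28, Mrpl33, Mrps18c and Mrps12. Mrps28, whose 4 counts are given above, had a ratio of -0.70 (-1.01 to -0.39). Mrpl33, a small large-subunit protein with a bacterial relative, had 691, 1096, 930 and 615 reads, a ratio of -0.66 (-0.86 to -0.45). Mrps18c (mm39 chromosome 5, 100946625 to 100952333, plus strand) had 637, 1044, 868 and 587 reads, a ratio of -0.65 (-0.86 to -0.44). Its summed exons come to 502 bases and those of Mrpl33 to 466 bases, among the shortest of the members, and after the length and GC correction their ratios were -0.39 and -0.37. Mrps12 had 522, 799, 798 and 474 reads, a ratio of -0.58 (-0.82 to -0.34), and had about the same number of reads in the knockdown and wild-type libraries. The highest members were Mrps22, at 0.17 (0.00 to 0.34), Mrpl45, at 0.13 (0.04 to 0.22), Mrpl47, at 0.09 (-0.10 to 0.28), and Mrpl3, at 0.09 (-0.03 to 0.21). Among the promoters printed above, Mrps18c and Mrps22 both carried the ETS motif, with ratios of -0.65 and 0.17 here. Mrpl12 and Mrpl45 both carried the NRF1 motif, with ratios of -0.31 and 0.13 here. These promoters were printed because their members differed, so the pairs do not describe the other members with a motif. The 12 members with the ETS motif had a median of -0.33 here and the 16 with the NRF1 motif -0.18. Members whose promoter lacked the motif had -0.22 and -0.27.

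The fourth comparison, of the mutant with the wild-type construct, asked how the members differed with the state of the m6A-binding site. Ythdf2 itself had a ratio of -0.10 (-0.16 to -0.03), so the constructs were counted at similar levels. The log2 ratio of the mutant to the wild-type library was above 0 for 18 of 78 members (against 49.0% of all genes), with a median of -0.17 (range -0.79 to 0.70) beside -0.01 over all genes. For 23 members the level was at least 20% lower (29.5%, against 27.0% of all genes and 17.8% of those with a like or higher mean count). It was at least 25% higher for 3, Mrpl3, Mrpl16 and Mrpl19 (against 23.6% of all genes and 16.8% of those with a like or higher mean count). A 2-fold difference was measured for 0 members (against 11.6%). After the correction for GC content and length 33 members were above 0 and the median was -0.06, both nearer to the values over all genes, and 15 members in place of 26 were past either limit. Length and GC content both moved with the ratio, with Spearman's rho of 0.42 and -0.29 over the 78 members and 0.27 and -0.39 over the 16988 genes.

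Before correction, the 4 lowest members here were all in the small subunit. Mrps16 had a ratio of -0.79 (-1.02 to -0.57), Mrps28 of -0.70 (-1.03 to -0.40) and Mrps12 of -0.70 (-0.94 to -0.47). Mrps24, with 682, 827, 909 and 555 reads, had a ratio of -0.66 (-0.88 to -0.44). Corrected for length and GC content, Mrps16 stood at -0.60, Mrps12 at -0.32, Mrps28 at -0.31 and Mrps24 at -0.30. Mrpl48, of the large subunit, was then at -0.57, below all of these but Mrps16. The highest members were Mrpl3 at 0.70 (0.56 to 0.84), Mrpl19 at 0.40 (0.25 to 0.56), Mrpl16 at 0.38 (0.16 to 0.61) and Mrps2, a small-subunit protein with a bacterial relative, at 0.29 (0.19 to 0.39). Mrps2 had 3239, 4064, 3019 and 3572 reads and was lowest with wild-type YTHDF2.

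The knockdown and the mutant-to-wild-type comparison share no library. Of the 78 members, 2 were at least 25% higher in both, Mrpl3 and Mrpl19 (against 11.1% of all genes), and 0 were at least 20% lower in both (against 12% of all genes). A level in the knockdown and mutant libraries above that in both of the other libraries was measured for 13 members, and one below both for 6, against 26.4% and 27.5% of all genes. Across the 78 members the ratios of the 2 comparisons were nearly unrelated (Spearman's rho 0.07), where over 16988 genes rho was 0.37. Of the 6 marker genes of 2-cell-like cells, 6 were higher on knockdown and 5 were higher in the mutant than in the wild-type library (the exception, Tcstv1, had 1, 43, 13 and 9 reads), and their part in the member values was not tested.

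**Figure D4:**
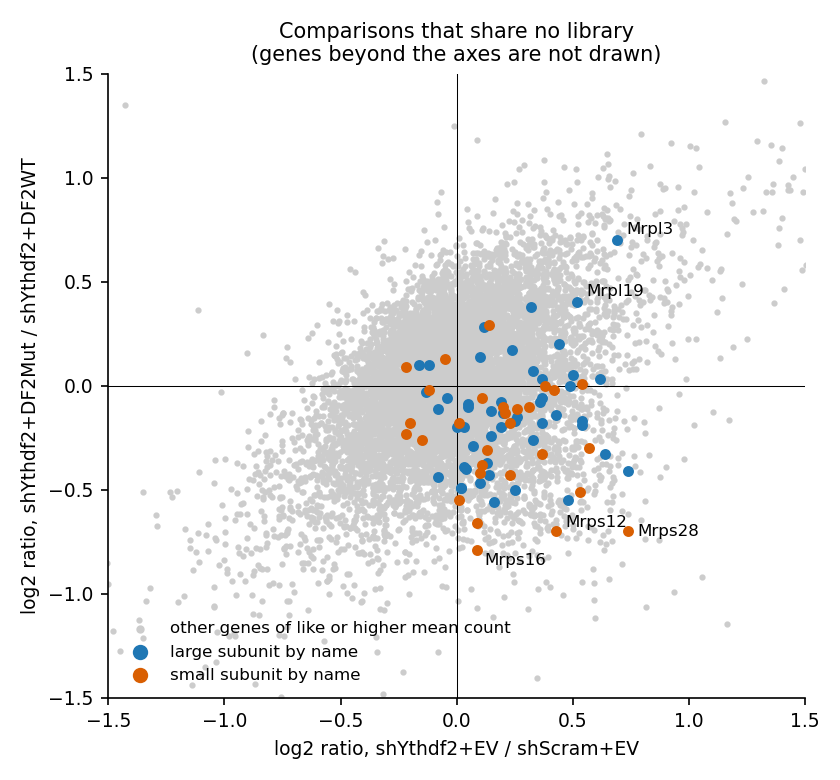
Log2 ratio of the mutant to the wild-type library against that of knockdown to control, which share no library, for the members (blue, large subunit; orange, small subunit) and, in grey, for other genes of like or higher mean count within the axes. Mrpl3 (0.69 and 0.70) and Mrpl19 (0.52 and 0.40) lie in the upper right, and Mrps28 (0.74 and -0.70) and Mrps12 (0.43 and -0.70) in the lower right.

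Mrpl3 was the member with the widest swing in that order of libraries. Its FPKM were 4.47, 7.23, 4.72 and 7.69, a 1.62-fold difference on knockdown and a 1.63-fold difference between the constructs. After correction for GC content and length its ratios were 0.72 and 0.49. Its exons overlapped those of no other gene, so the counting without regard to strand leaves its reads to this gene alone. Mrpl19 (mm39 chromosome 6, 81934807 to 81942930, minus strand), a large-subunit protein with a bacterial relative, had 1109, 1808, 1259 and 1611 reads, with ratios of 0.52 (0.37 to 0.68) and 0.40 (0.25 to 0.56). Its corrected ratios were 0.55 and 0.27. Of its exon bases, 22.8% are shared with Gcfc2 on the opposite strand, which had 909, 615, 722 and 638 reads and so did not follow the order of Mrpl19. Of the 78 members, 22 shared exon bases with another gene, and among the other 56 the medians of the 4 comparisons were 0.15, -0.06, -0.25 and -0.18.

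Other lists of the mitochondrial translation system differed in their medians on knockdown, and no difference between lists was tested. The 5 mitoribosomal proteins under other names (Dap3, Ptcd3, Chchd1, Aurkaip1 and Gadd45gip1) had a median knockdown ratio of 0.18, with 3 of 5 above 0, from 0.68 for Chchd1 to -0.25 for Dap3. Factors that assemble the mitoribosome were above 0 for 15 of 25 genes with a median of 0.05. Mitochondrial translation factors were so for 5 of 14 with a median of -0.07, and mitochondrial aminoacyl-tRNA synthetases for 11 of 17 with a median of 0.05. Of all genes, 49.8% were above 0. With the mutant construct the medians of these 4 lists were -0.10, -0.11, 0.02 and -0.04. Of 17 regulators of mitochondrial biogenesis, 16 passed the filter, and 9 of these were above 0 on knockdown. Among them, Gabpa, whose protein binds the ETS motif, had 5772, 6977, 5240 and 6810 reads and a knockdown ratio of 0.09, and Nrf1, whose protein binds the NRF1 motif, had 3637, 3693, 3539 and 3343 reads and a ratio of -0.16.

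The RNAs that the mitoribosome is built on and translates are made inside mitochondria. The rRNA of the small subunit, mt-Rnr1, had 12639, 28652, 13469 and 15217 reads, with a knockdown ratio of 0.99 (0.95 to 1.04), and that of the large subunit, mt-Rnr2, had 24974, 42915, 19927 and 33159 reads, with a ratio of 0.60 (0.56 to 0.63). Both were highest in the knockdown library. The libraries were made from poly(A)+ RNA, so these reads are what was left after that selection and need not follow the level of the rRNAs. On knockdown the 13 mRNAs of the mitochondrial genome went the other way, with 12 of 13 below 0 and a median of -0.23. With the mutant construct all 13 were below 0, with a median of -0.41. Several of these mRNAs are short, such as ATP8 with 204 bases. Among genes under 1000 bases with a like or higher mean count, 421 of 455 were lower in that comparison, with a median of -0.39. The part of length in the values of these mRNAs was not tested. In the knockdown library, then, 65 of the 78 members and both rRNAs were counted higher than in the control, and 12 of the 13 mRNAs of the mitochondrial genome lower.

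**Figure D5:**
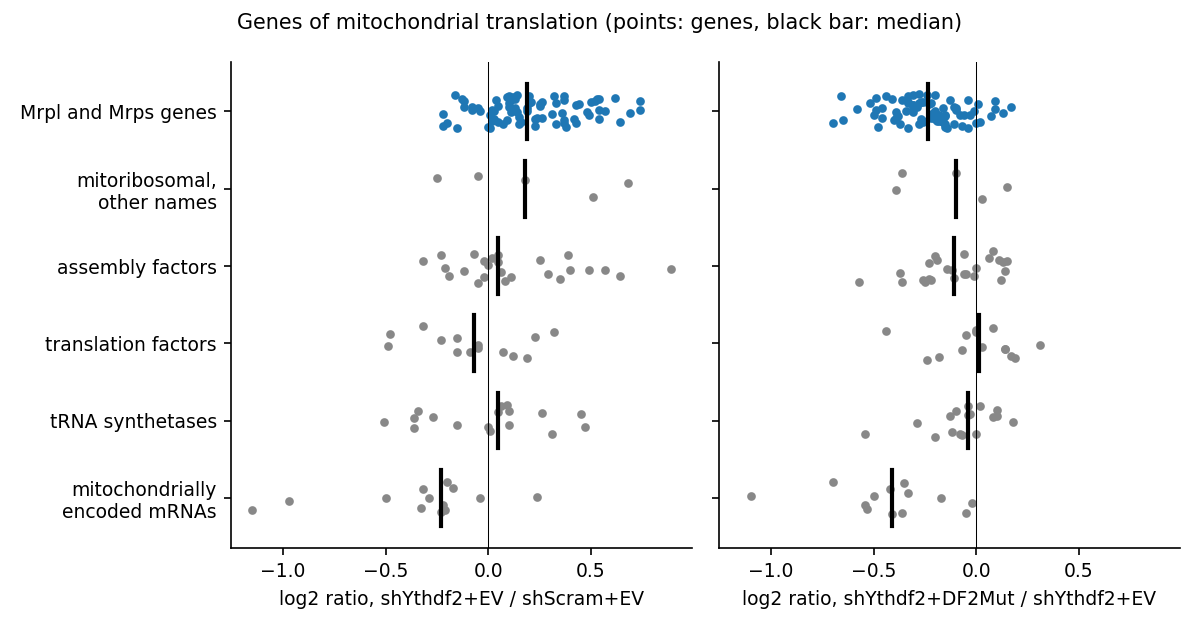
Log2 ratios of genes of mitochondrial translation on knockdown (left) and with the mutant construct against the knockdown (right), with 1 point per gene and a black bar for the median of each list. The Mrpl and Mrps genes have medians of 0.19 and -0.23, and the mitochondrially encoded mRNAs of -0.23 and -0.41.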

How the data were processed

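Poly(A)+ RNA of E14 ESCs was sequenced in 4 paired-end libraries, 1 per group, each assigned by its title. The authors deposited 1 table of raw read counts per gene. Per the file headers, they used featureCounts 2.0.3 on mm39 RefSeq exons, without strand and counting reads rather than pairs. The submitters' processing notes also name fastp 0.19.4, HISAT2 2.2.1, DESeq2 1.40.2 and the build mm10, with no role. Libraries held 31533129 to 35742335 reads, and a floor of 3 reads corresponds to 0.0839 to 0.0951 CPM.

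From these counts, library sizes were scaled with TMM factors (edgeR 4.0.16, R 4.3.3) of 0.976 to 1.01 over the genes averaging at least 10 reads. The genes passing that filter are called all genes. Log2 ratios used a prior count of 0.5. Because both mates add to a gene, the 95% intervals of single genes (Clopper-Pearson) used the number of read pairs, taken as reads divided by 2, with Python 3.11.15 and scipy 1.17.1, and the ratio code was checked on simulated data. FPKM used the deposited exon lengths. GC content and transcript length came from GENCODE vM21 by symbol, for 91.4% of tested genes, and the loess correction used a span of 0.4. No p-value or enrichment test was computed, since each group had 1 library.

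Members and gene lists were chosen with earlier results of these data known. The genes named are Ythdf2, the 4 highest and 4 lowest members per comparison (mean count 100 or more), the 3 highest and 3 lowest by FPKM, members at least 25% higher or 20% lower in both the knockdown and the mutant to wild-type comparison, and fixed groups by role. Other pathway genes come from fixed lists, and the examples from them were picked after their values were seen. Alternatives were other scalings (DESeq2 1.42.0 size factors among them), priors, filters and fold limits, the correction, and members without exon overlap.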

Additional observations from a re-analysis of the deposited data

How the results depend on the processing

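No paired analysis was possible because each group had 1 library, and for the same reason no library could be left out. Of 128 alternatives, 111 left the value within its limit and 17 moved it. For a median ratio the limit was the median half-width of the members' counting intervals. It was a factor of 1.5 for a number of members and the Wilson interval for a share. Only a median ratio could reverse its sign, and 0 did. The number of members past the fold limit went from 26, 7, 24 and 26 at the limit used (knockdown, wild-type construct, mutant construct, mutant against wild-type) to 5, 1, 3 and 5 at 1.5-fold and 0 in each at 2-fold. With the length and GC correction it was 15 for the wild-type construct, 7 for the mutant construct and 15 for mutant against wild-type, and the number above 0 became 16 for the mutant construct (from 7) and 33 for mutant against wild-type (from 18). Without mitochondrially encoded genes the shares were 0.3326%, 0.3746%, 0.3575% and 0.331%. No scaling moved the median of all genes by more than 0.04. No member lay on chromosome 12, so leaving out the members there could change nothing and was no check. For the members with the fewest reads the counting intervals reach about 0.3 on either side, more than the median ratios, and the spread between cultures is unknown.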
